A study of Homo sapiens with 2 samples.

Results

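The BCL2 family decides whether a cell under stress opens its mitochondria and dies. Anti-apoptotic members hold the effectors BAX and BAK1 in check. BH3-only members sense stress and either block the anti-apoptotic proteins or act on the effectors directly, and effectors set free then permeabilise the outer mitochondrial membrane so that cytochrome c can leave it. A total of 10 family genes were examined out of 19198 genes in the deposited tables. They were taken by symbol, as 4 anti-apoptotic genes (BCL2, BCL2L1, BCL2L2 and MCL1), 2 effector genes (BAX and BAK1) and 4 BH3-only genes (BID, BBC3, PMAIP1 and BCL2L11). All 10 were found, and all 10 were above 1 FPKM (reads per length of the gene and depth of the library) in both libraries.

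The data came from polyA RNA of cells labelled as A549, a human line from a lung adenocarcinoma that is widely used as a model of non-small-cell lung cancer (NSCLC). One library was made from cells overexpressing NICD1, the intracellular domain that activated NOTCH1 releases (A549-NICD1), and the other from cells with the control vector (A549-Vector). The study compared them to look for genes through which NICD1 acts. Its methods place NICD1 in a lentiviral vector, pSin-EF2, that carries an antibiotic resistance gene, and whether the sequenced cells were a pool or a single clone was not given in the sources used here. With 1 library per condition no difference has a replicate check, no p-value is given, and intervals below cover counting error only.

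The unit of the deposited values is not named, and they were read as whole reads divided by depth and gene length. The depth inferred in this way was 48602848 reads for A549-Vector and 48528434 for A549-NICD1, at which lengths came out whole for 65.8% of 2685 genes whose reads stood in simple ratios. NOTCH1 stood at 5.40 FPKM in A549-Vector against 2865 FPKM in A549-NICD1, in the direction that the labels give. The Notch target HES5 was at 7.78 and 115 FPKM, and RFC4, the gene the study went on to examine, at 39.5 and 4075 FPKM. By FPKM in A549-NICD1, RFC4 had rank 1 among all genes and NOTCH1 rank 3. FPKM divides reads by gene length, so this order is not one of reads. In A549-NICD1 the values rest on at least 1.29e+06 reads for NOTCH1 and at least 281203 for RFC4. Why RFC4 stood this high was not tested. The check of the cell line went against its label. Among 12 marker genes of A549, 5 (KRT7, KRT19, FGA and FGB among them) were listed at 0 in both libraries and 8 were under 1 FPKM in both, and the 12 genes summed to 16.4 FPKM in A549-Vector against 15.4 FPKM in A549-NICD1. The 3 that reached 1 FPKM in both were ANXA1 (11.1 and 11.4 FPKM), CDH1 (2.41 and 1.27 FPKM) and ALDH3A1 (1.45 and 2.01 FPKM). ANXA1 made up most of the sum. All 6 marker genes of HEK293, a line from human embryonic kidney, reached 1 FPKM in both, and the 6 summed to 235 FPKM in A549-Vector against 223 FPKM in A549-NICD1. CDKN2A, 1 of these 6 and a gene that A549 cells are generally known to lack, was at 139 and 138 FPKM, the largest part of that sum. PAX2 (3.02 and 1.77 FPKM) and SOX11 (1.68 and 2.24 FPKM) were the lowest of the 6. Both marker lists were chosen with earlier results of these data known. Whether the cells sequenced bear on the levels below was not tested, and the names A549-NICD1 and A549-Vector follow the labels.

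The feature that ties all 3 roles together is the BH3 region, a short helix through which the proteins bind each other. A search of the principal GENCODE transcript of each gene for codons of leucine or methionine, any 3 residues, glycine or alanine, and aspartate gave exactly 1 match in each of the 10 genes. The matching stretches are printed 5′ to 3′ on the coding strand (GRCh38), so that the 3 roles can be read side by side. Capitals mark the 18 bases of the core, and lower case marks 2 codons on either side.
BCL2 (chr18:63318355-63318384, minus strand, exon 2): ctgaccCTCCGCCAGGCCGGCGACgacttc
BCL2L1 (chr20:31721928-31721957, minus strand, exon 2): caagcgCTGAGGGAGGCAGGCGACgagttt
BCL2L2 (chr14:23307897-23307926, plus strand, exon 3): caagccATGCGGGCAGCTGGAGATgagttc
MCL1 (chr1:150578871-150578900, minus strand, exon 1): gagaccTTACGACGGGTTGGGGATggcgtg
BAX (chr19:48955781-48955810, plus strand, exon 3): gagtgtCTCAAGCGCATCGGGGACgaactg
BAK1 (chr6:33575393-33575422, minus strand, exon 4): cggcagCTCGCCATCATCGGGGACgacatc
BID (chr22:17739421-17739450, minus strand, exon 4): aggcacCTCGCCCAGGTCGGGGACagcatg
BBC3 (chr19:47226585-47226614, minus strand, exon 3): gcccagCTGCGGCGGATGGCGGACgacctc
PMAIP1 (chr18:59902667-59902696, plus strand, exon 2): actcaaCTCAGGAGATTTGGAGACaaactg
BCL2L11 (chr2:111150097-111150126, plus strand, exon 4): caagagTTGCGGCGTATTGGAGACgagttt
Each stretch lay in a single coding exon. The first core codon was for leucine in 9 of the 10 genes and for methionine in BCL2L2, and the fifth was for glycine in 9 of 10 and for alanine in BBC3. Only 4 of the 18 core bases were the same in all 10 genes, and these are the 4 that the search itself requires. They are therefore not a finding about the genes. The pattern also admits the methionine of BCL2L2 and the alanine of BBC3, and other genes were not searched. The match in all 10 genes is thus a description only. Between pairs of genes, 5 to 14 of the 18 bases were identical with these 4 included (median 10, 45 pairs). BCL2 with BID, an anti-apoptotic and a BH3-only gene, and BAK1 with BID shared 14, the most of any pair, and BCL2L2 with BAK1 shared 5, the fewest. The genes were scattered over the genome apart from a pair on chromosome 18 (BCL2 and PMAIP1, 3.22 megabases apart) and a pair on chromosome 19 (BAX and BBC3, 1.72 megabases apart).

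Levels per length differed widely within each role. In A549-Vector the order from high to low was BAX, MCL1, PMAIP1, BAK1, BID, BCL2L11, BCL2L1, BBC3, BCL2L2 and BCL2. MCL1, a survival protein with a very short half-life, and BAX together made up the largest part of the family in both libraries. MCL1 gave 20.9% of the summed FPKM of the 10 genes in A549-Vector against 27.1% in A549-NICD1, and BAX gave 27.4% and 25.2%. BCL2 itself was the lowest of the 10 in both, at 1.16% and 1.82%. In this order BBC3 (7.45 FPKM) and BCL2L2 (7.44 FPKM) were level, and with 1 library no neighbours in it can be told apart beyond counting error. In FPKM as deposited, the 10 genes summed to 308.5 in each library, and with the scaling used for the log2 ratios below the sum of A549-NICD1 was 320.8. The composition of the family differed, as the plot of levels by gene shows.

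**Figure D1:**
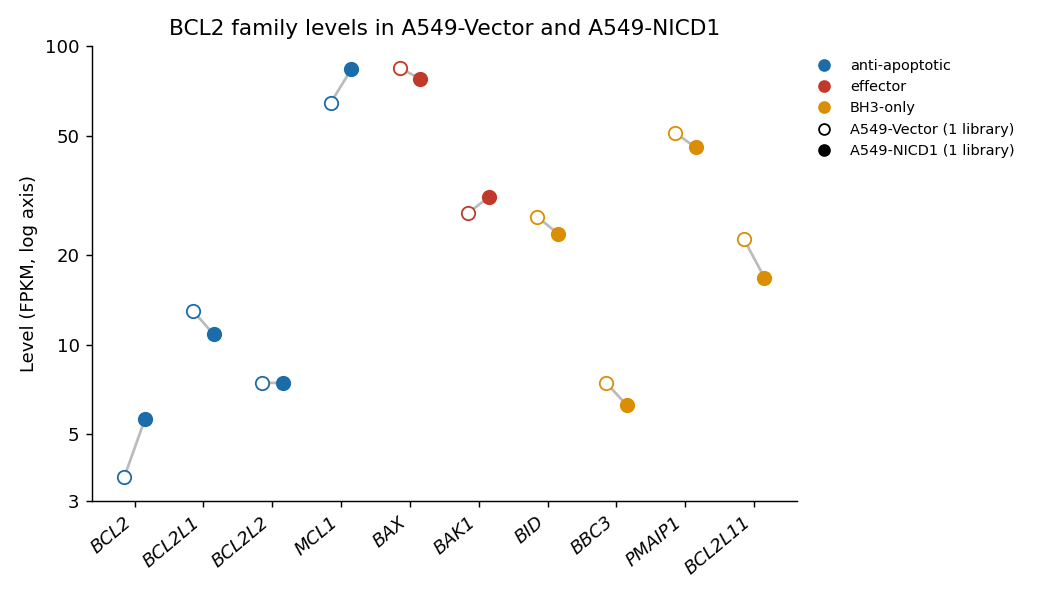
Level of each BCL2 family gene in FPKM (vertical log axis) in A549-Vector (open circles) and A549-NICD1 (filled circles), 1 library each, coloured by role. BCL2 and MCL1 show the steepest upward lines, from 3.59 to 5.61 FPKM and from 64.6 to 83.6 FPKM, and all 4 BH3-only genes slope downward.

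The central question was which survival and death genes differed between NICD1-overexpressing and control cells. The survival genes BCL2 and MCL1 and the effector BAK1 were higher in A549-NICD1, while BCL2L11 and BCL2L1 were the lowest relative to A549-Vector. Of the 10 genes, 1 (BCL2) was more than 1.5-fold higher in A549-NICD1, beside 2.38% of the 12449 genes with at least 1 FPKM in a library, and 0 were more than 1.5-fold lower, beside 3.04%. With a pseudocount of 1 FPKM, BCL2 was at a log2 ratio of 0.57 and 0 members passed 1.5-fold, beside 1.4% of all tested genes that were higher. A 2-fold difference was passed by 0 of the 10 in either direction, where 0.972% of all tested genes were more than 2-fold higher and 0.394% more than 2-fold lower. The counting interval of the log2 ratio lay wholly above 0 for 3 genes (BCL2, MCL1 and BAK1) and wholly below 0 for 4 (BCL2L1, BID, PMAIP1 and BCL2L11). It did so for 28.7% and 29.7% of all tested genes, so that at this depth a difference beyond counting error is common and these 3 and 4 genes are near the background. The intervals rest on the smallest reads that fit the values and are at their widest. Counts of intervals off 0 are therefore lower limits, for members and background alike. The median log2 ratio of the 10 genes was -0.09, and that of all tested genes was -0.01.

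**Figure D2:**
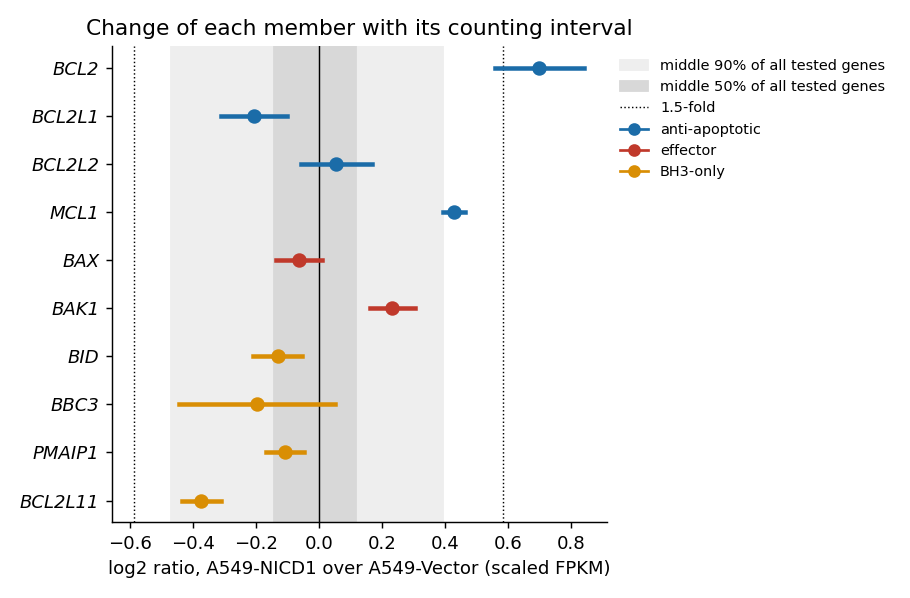
Log2 ratio of A549-NICD1 over A549-Vector for each gene (points) with its 95% counting interval (bars), coloured by role. The pale band spans the 5th to 95th percentile of all tested genes (-0.47 to 0.39), the darker band their interquartile range (-0.14 to 0.12), and dotted lines mark a 1.5-fold difference. BCL2 and MCL1 lie above the pale band.

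Among the anti-apoptotic genes, BCL2 differed most. BCL2, the founding member of the family, which restrains BAX, BAK1 and BH3-only proteins at the mitochondrion, was at 3.59 FPKM in A549-Vector against 5.61 FPKM in A549-NICD1. These values rest on at least 672 and 1048 reads. The log2 ratio after scaling, which here divides A549-NICD1 values by 0.962 so that most genes centre near 0, was 0.70 (95% Clopper-Pearson interval 0.56 to 0.84), which is 1.62-fold and lay at percentile 98.3 of all tested genes. At these smallest reads the interval reaches below the 1.5-fold line at 0.58, so counting error alone does not place BCL2 past that line.

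MCL1 was at 64.6 FPKM in A549-Vector against 83.6 FPKM in A549-NICD1, a log2 ratio of 0.43 (interval 0.39 to 0.46) on at least 12077 and 15612 reads, at percentile 95.8. Its ratio of 1.35-fold was smaller than that of BCL2, but MCL1 is far more abundant and differed by more FPKM. BCL2L1, which encodes the survival protein BCL-xL and by splicing the shorter BCL-xS, went the other way, from 12.96 to 10.81 FPKM with a log2 ratio of -0.21 (interval -0.31 to -0.10). BCL2L2, which encodes BCL-w, was at 7.44 FPKM in both, with a log2 ratio of 0.06 (interval -0.06 to 0.17) that became 0.00 without scaling. The 4 survival genes thus lay on both sides of 0. Each value is the total of a gene and does not separate BCL-xL from BCL-xS, or the spliced forms of MCL1 and BCL2L11. GENCODE places the antisense gene ABALON over 43.0% of the exon bases of BCL2L1, and ABALON was not listed under this name in either library. The study describes the sequencing as strand-specific, but the strand setting used in counting was not given in the sources used here.

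The effectors split as well. BAX, which moves from the cytosol to mitochondria when activated, was at 84.4 FPKM in A549-Vector against 77.6 FPKM in A549-NICD1, a log2 ratio of -0.06 whose interval (-0.14 to 0.01) held 0. This interval rests on at least 3146 and 2890 reads, and with more reads it might not hold 0. BAK1, which sits in the mitochondrial membrane already, was at 27.6 and 31.2 FPKM, a log2 ratio of 0.23 (interval 0.16 to 0.31) at percentile 88.3. The ratio of BAX to BAK1 was 3.06 in A549-Vector against 2.49 in A549-NICD1.

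All 4 BH3-only genes were lower in A549-NICD1, under each scaling and pseudocount tried, where 51.1% of all tested genes were lower. BCL2L11, which encodes BIM and is a known target of FOXO transcription factors, differed most, with 22.5 FPKM in A549-Vector against 16.7 FPKM in A549-NICD1. Its log2 ratio was -0.37 (interval -0.44 to -0.31) on at least 4970 and 3684 reads, at percentile 7.66 of all tested genes. BID, which caspase-8 cleaves to carry a death receptor signal to mitochondria, was at 26.8 and 23.5 FPKM with a log2 ratio of -0.13 (interval -0.21 to -0.05). PMAIP1, which encodes NOXA, a partner of MCL1, was at 51.2 and 45.7 FPKM with a log2 ratio of -0.11 (interval -0.17 to -0.05). BBC3, which encodes the p53 target PUMA, was the least covered, with at least 297 and 249 reads. It was at 7.45 and 6.26 FPKM, and the interval of its log2 ratio of -0.20 ran from -0.44 to 0.05 and held 0. With more than these smallest reads the interval of BBC3 might not hold 0. Apart from BCL2L11, the BH3-only genes differed less than many other genes did, from percentile 18.8 for BBC3 to percentile 30.2 for PMAIP1. In these bulk libraries, fewer cells with a transcript and less of it per cell cannot be told apart.

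**Figure D3:**
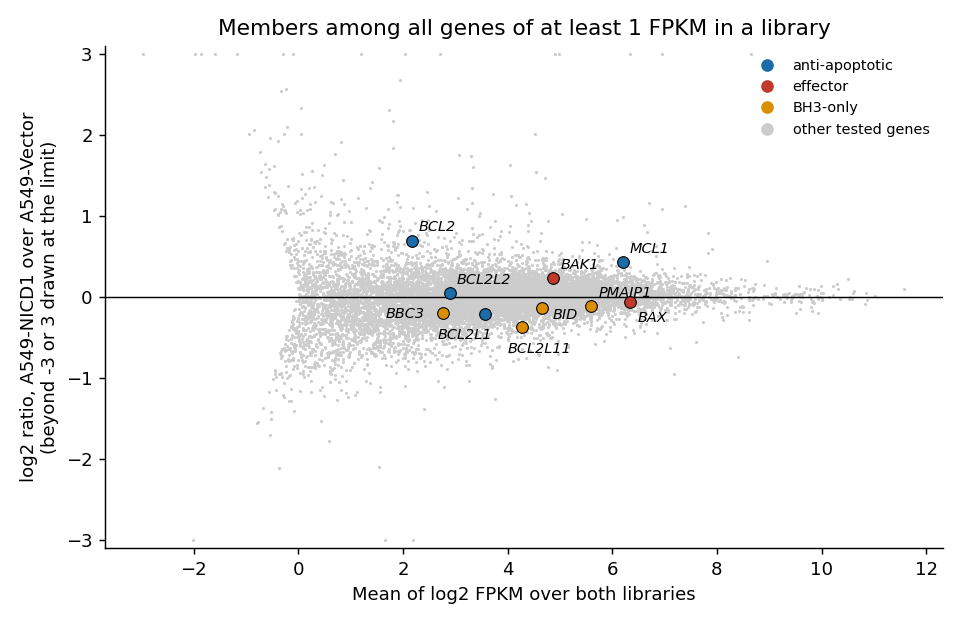
Log2 ratio of A549-NICD1 over A549-Vector (vertical axis) against the mean log2 FPKM of both libraries (horizontal axis) for 12449 genes with at least 1 FPKM in a library (grey) and for the 10 family genes (coloured by role). BCL2 and MCL1 lie in the upper part of the cloud, with other genes of like level above them, and the remaining family genes lie nearer its middle.

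The balance between survival and death genes was then set out by sums of FPKM as deposited and by ratios of these sums within each library, in which depth and scaling cancel. Summed anti-apoptotic FPKM was 88.5 in A549-Vector against 107.4 in A549-NICD1, summed effector FPKM was 112.0 and 108.9, and summed BH3-only FPKM was 108.0 and 92.2. With scaling the sums of A549-NICD1 were 111.7, 113.2 and 95.9, so that the effector sum was lower in A549-NICD1 as deposited and higher after scaling. The ratio of anti-apoptotic to effector FPKM was 0.791 in A549-Vector against 0.987 in A549-NICD1, 1.25-fold higher, and that of anti-apoptotic to BH3-only FPKM was 0.820 and 1.17, 1.42-fold higher. MCL1 carried most of the difference in the ratio to effectors. The ratio to BH3-only genes reflected both the higher MCL1 and the lower BH3-only sum. Without MCL1, these ratios were 1.02-fold and 1.16-fold higher in A549-NICD1.

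**Figure D4:**
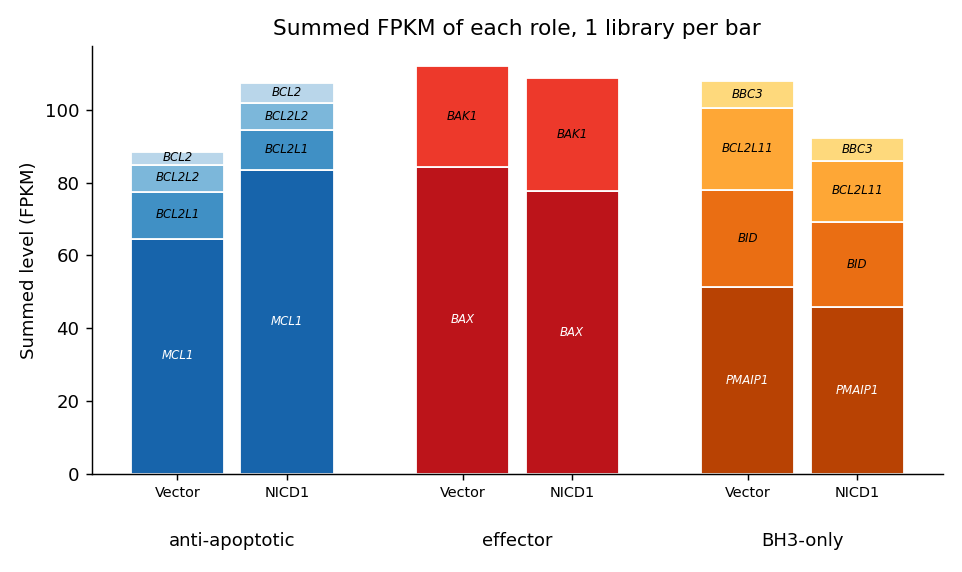
Summed FPKM, as deposited and without scaling, of the anti-apoptotic, effector and BH3-only genes in A549-Vector and A549-NICD1 (1 library per bar, axis from 0), with each gene as a segment. The anti-apoptotic bar is taller in A549-NICD1 (107.4 against 88.5 FPKM), mainly through MCL1, and the BH3-only bar is shorter (92.2 against 108.0 FPKM).

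The ratio of levels was also compared between the libraries for 11 pairs of members, most of them pairs whose proteins bind each other. BCL2 to BAX was 0.0426 in A549-Vector against 0.0723 in A549-NICD1, a log2 difference of 0.76 (interval 0.61 to 0.92). BCL2 to BCL2L11 was 0.159 and 0.335, a log2 difference of 1.07 (interval 0.92 to 1.23), the largest of the 11 pairs. That rank was fixed in advance, because BCL2 had the highest and BCL2L11 the lowest log2 ratio among the members. The pairs restate the ratios of single genes given above. MCL1 to BCL2L11 was 2.86 and 4.99, with a log2 difference of 0.80 (interval 0.73 to 0.87). MCL1 to PMAIP1 was 1.26 and 1.83, with a log2 difference of 0.54 (interval 0.47 to 0.60). MCL1 to BAK1 differed less, at 2.34 and 2.68 with a log2 difference of 0.20 (interval 0.12 to 0.27), since both genes were higher. BCL2L1 to BAK1 was lower in A549-NICD1, at 0.469 and 0.346 with a log2 difference of -0.44 (interval -0.56 to -0.31). These are ratios of transcripts and say nothing of protein.

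The other family genes and the neighbouring steps of the pathway were examined in lists. Of 13 other BCL2 family genes, 8 had at least 1 FPKM in a library (median log2 ratio -0.08). Of these 8, 0 were more than 1.5-fold higher, beside 2.38% of all tested genes. A single gene, 1 of the 8, was more than 1.5-fold lower, beside 3.04%. That gene was BMF, a BH3-only gene tied to the cytoskeleton, at 4.90 FPKM in A549-Vector against 2.70 FPKM in A549-NICD1. Its log2 ratio of -0.80 (interval -0.95 to -0.66) lay at percentile 0.996 of all tested genes, so the BH3-only gene with the largest difference was outside the 10. HRK, a BH3-only gene of neurons, had the highest ratio of the 8 tested genes, at 1.52 and 1.84 FPKM with a log2 ratio of 0.33 whose interval (-0.04 to 0.71) held 0. BCL2L12 had the highest level of the list, at 51.0 and 50.7 FPKM.

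Downstream of the mitochondrion, 9 of 9 apoptosome and caspase genes were tested, and 0 passed 1.5-fold in either direction (median 0.04). Among all tested genes 2.38% were more than 1.5-fold higher and 3.04% more than 1.5-fold lower. For lists this short, 0 is near that background. APAF1, the scaffold of the apoptosome, had the lowest ratio of the list, at 9.56 and 6.80 FPKM with a log2 ratio of -0.43 (interval -0.51 to -0.36) at percentile 5.88. CYCS, which encodes cytochrome c, had the highest level of the list at 36.4 and 37.7 FPKM. Of 7 genes for inhibitors of apoptosis proteins (IAPs) and their antagonists, 6 were tested and 0 passed 1.5-fold (median -0.06), beside the same shares. Among the 6 tested, DIABLO, which encodes the IAP antagonist SMAC, had the lowest ratio at 10.5 and 8.77 FPKM, and the protease gene HTRA2 the highest ratio at 10.1 and 10.4 FPKM. BIRC5 (survivin) had the highest level, at 99.9 and 94.2 FPKM.

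Upstream, 7 of 10 death receptor pathway genes were tested and 0 passed 1.5-fold (median -0.04). This too is near the background of 2.38% higher and 3.04% lower. RIPK1, a kinase at the fork between survival and death signalling, was at 13.9 and 16.9 FPKM with a log2 ratio of 0.34 (interval 0.27 to 0.41), and FADD, the adaptor of death receptors, at 25.2 and 20.5 FPKM with one of -0.24 (interval -0.33 to -0.15). Among 16 genes listed as transcriptional or protein regulators of the family, all 16 were tested (median -0.05). Of these, 1 was more than 2-fold higher, beside 0.972% of all tested genes, and 0 were more than 1.5-fold lower, beside 3.04%. The higher gene was DDIT3, which encodes the stress factor CHOP, at 4.36 and 8.75 FPKM with a log2 ratio of 1.06 (interval 0.82 to 1.31) at percentile 99.2. ATF4 was the most abundant of these regulators, at 241 and 249.8 FPKM. FOXO3, one of the FOXO factors, had the lowest ratio of the list, at 21.9 and 16.5 FPKM with a log2 ratio of -0.35 (interval -0.40 to -0.30). Whether any of these regulators bears on the levels of the members was not tested.

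**Figure D5:**
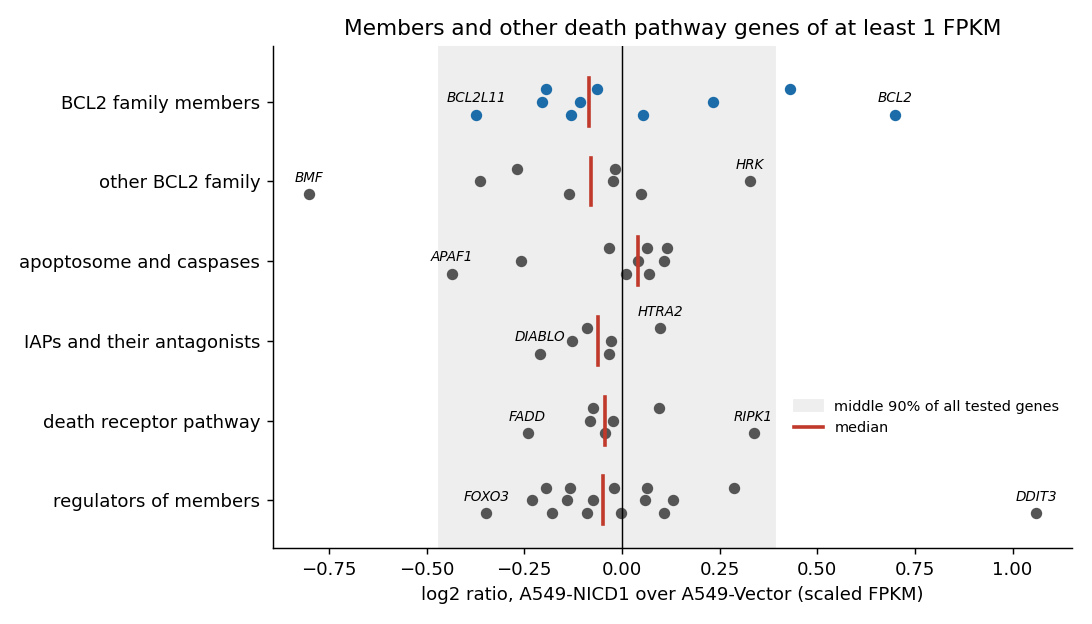
Log2 ratio of A549-NICD1 over A549-Vector for the 10 family genes and for 5 lists of other death pathway genes with at least 1 FPKM in a library (1 point per gene, red line at the median, grey band from the 5th to the 95th percentile of all tested genes). The medians lie between -0.09 and 0.04, and BCL2, MCL1, BMF and DDIT3 lie outside the band.

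NICD1 acts on genes through the DNA-binding protein RBPJ, whose known site has the core TGGGAA. The window from 250 bases before to 50 bases after each gene start was searched for it on both strands, in RefSeq promoters of GRCh38.p14. Of 35116 promoters of this length, 24.03% held the core and 6.25% the longer GTGGGAA, which contains it. Promoters were found for 8 of the 10 genes, 13 in all, and 3 of the 13 held the core, in 2 genes (BAK1 and BID). BCL2L2 and MCL1 had none and were not searched. BAK1 had 1 promoter, and 2 of the 5 promoters of BID held it, in windows that overlap each other. The match in these BID windows is the same stretch of the genome, counted in both. The longer form was in 0 of the 13. BCL2, BCL2L11, BAX, BBC3, PMAIP1 and BCL2L1 had no match in their windows. A match of 6 bases is a description of the sequence and not a site. Sites outside the window would be missed. The study places its predicted RBPJ site of RFC4 in the gene body, farther than 50 bases after the start.

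Some genes share sequence with others. The read-through gene BCL2L2-PABPN1 covers 19.4% of the exon bases of BCL2L2 on the same strand and was listed at 0 in both libraries, and 14.1% of the 100-base windows of the BCL2L2 transcript occurred in it. Of the BAK1 windows, 4.65% occurred in the pseudogene BAK1P1, which was not listed under this name in either library. MIR4435-2HG, which was also not listed under its name, lies opposite 10.9% of the exon bases of BCL2L11. Apart from BCL2L2 and BAK1, each of the 10 genes had 0% of its windows in transcripts of another gene.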

How the data were processed

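Libraries of polyA RNA were made with a NEBNext Ultra kit, and the submitters' processing notes name Bowtie2, HTSeq and hg38. The authors deposited 1 value per gene and library, and the values were treated as FPKM, since the file names no unit. The study describes the sequencing as strand-specific, while the annotation and the strand setting of the counting were not given in the sources used here. Rows named by date numbers (27) were left out.

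Depths were found from the values alone. The most common ratio between the libraries (233 genes) gives the ratio of depths, and the depth is the largest one that left whole-number lengths, as it did for 65.8% of 2685 genes with simple ratios. For each gene the smallest pair of reads that gave both values within 0.0005 of whole numbers, over lengths from 200 bases, was used. True reads may be a multiple of it, so intervals are at their widest.

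Log2 ratios were taken on FPKM plus 0.01 after scaling to a mean of log ratios trimmed at each end (30% of ratios and 5% of levels), and understate changes of low genes slightly. Genes with at least 1 FPKM in a library (12449) served as background. Intervals are 95% Clopper-Pearson intervals, and those of ratios between genes are normal intervals on the log scale from the 4 read counts. They cover counting error only, and reads that carry no molecular identifier need not be independent. The functions were tested on simulated data.

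The members, lists and alternatives were chosen with earlier results of these data known. Named genes were all members and, in each other list, the highest and lowest ratio, the highest level in A549-Vector and every gene past 1.5-fold. A gene that this rule would name in the list of apoptosome and caspase genes is not reported here. Coordinates and coding sequences are from GENCODE 29 (GRCh38). Python 3.11.15, scipy 1.17.1 and biopython 1.88 were used.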

Additional observations from a re-analysis of the deposited data

How the results depend on the processing

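No paired analysis was possible because there was 1 library per condition. Scaling, pseudocount and filter were changed in turn, and 171 values stayed within counting error, within 1.5 times the main count or, for ratios, close to the main ratio, while 8 did not. Without further scaling, all log2 ratios were lower by 0.06, which put MCL1 at 0.37 and the median of the regulators at -0.10 and took BCL2L2 to -0.0011, while the other 9 members kept their sign in all 6 settings. With a pseudocount of 1 FPKM, 0 members were more than 1.5-fold higher, since the log2 ratio of BCL2 was then 0.57. Without a filter, 3 other BCL2 family genes were more than 1.5-fold higher and 2 more than 1.5-fold lower, and in the background 2027 (11.8%) and 1405 (8.18%) of 17178 genes passed 1.5-fold, against 296 and 379 in the main setting. These were 174 and 107 with a pseudocount of 1 FPKM and 122 and 103 with a filter at 5 FPKM. For 2-fold, 121 and 49 genes became 1354 and 654 without a filter, 45 and 7 with that pseudocount and 42 and 9 with that filter. Without MCL1, summed anti-apoptotic FPKM was 1.02-fold higher in A549-NICD1 relative to effectors, 1.16-fold relative to BH3-only genes and 1.09-fold relative to both together, against 1.25-fold, 1.42-fold and 1.33-fold with it. Scaling the sums, an alternative chosen after seeing the data, put effectors at 1.01-fold against 0.972-fold without it and the sum of all 10 members, level without it, at 1.04-fold. Depth limited BBC3 most among the members, and the lack of replicates limits every difference.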

Other observations

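Several genes of the pathway were under 1 FPKM in both libraries and entered no count of tested genes, though some enter the counts made without a filter, and they are named here after their values were seen. BOK, an effector relative of BAX and BAK1, was at 0.148 FPKM in A549-Vector against 0.420 FPKM in A549-NICD1, on at least 19 and 54 reads, with an interval of its log2 ratio from 0.79 to 2.40. The divergent relatives BCL2L14 (0.223 and 0.383 FPKM) and BCL2L15 (0.0869 and 0.157 FPKM) were higher as well, with intervals from 0.02 to 1.69 and from 0.11 to 1.76. The survival gene BCL2A1 was listed at 0.0225 FPKM in A549-Vector and at 0 in A549-NICD1, and BCL2L10 at 0 in both. BIRC3, an IAP gene induced by NF-kappaB, was at 0.453 and 0.3001 FPKM, and the death receptor gene FAS at 0.925 and 0.683 FPKM. Both were lower, with intervals from -0.96 to -0.12 for BIRC3 and from -0.72 to -0.04 for FAS. The ligand gene FASLG was listed at 0 in both libraries, and TNFSF10, which encodes TRAIL, was at 0.255 and 0.231 FPKM.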
